A study of Mus musculus with 72 samples.

Results

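The comparison described here sets the suprachiasmatic nucleus (SCN) of mice kept in light/dark cycles against that of mice kept in constant darkness, on the control diet and at the day time points alone. It takes 18 of the 72 libraries of the series, 9 Ctrl LD and 9 Ctrl DD, with 3 libraries at each of 0, 4 and 8 h in either group. All animals were male C57BL/6 mice, 8 weeks old, single-housed for 1 week under LD (12 h of light a day) or DD and then fed for 2 weeks ad libitum under the same lighting. The diet was the nitrogen-matched control diet (Ctrl) in all 18, so that lighting is the named difference, and no allele or transgene was involved. Times are hours of the cycle, counted in LD from lights on by convention. RNA was measured by poly(A) RNA-seq and given as FPKM, the fragments scaled by transcript length and by the mapped fragments of the library, and how the SCN was dissected is not stated in the sources used here. Because a whole piece of tissue was measured, fewer cells of a type and less RNA per cell cannot be told apart.

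Which libraries are LD and which are DD rests on values and not on the deposited names. In the rhythm tables that accompany the study, each of the 18 columns used here equals a deposited column 12 places further along. The name of that deposited column gives the opposite light condition. For the 9 LD libraries, 1918 to 1939 genes were compared and 100% were equal, against at most 5 equal in any other library. For the 9 DD libraries, 124 to 133 genes were compared, again with 100% equal and at most 1 equal elsewhere. By their deposited names, the libraries used here as Ctrl LD are Ctrl DD at 16 and 20 h and -Trp DD at 0 h, and those used as Ctrl DD are Ctrl LD at 16 and 20 h and -Trp LD at 0 h. Read by name, every LD minus DD difference of these 18 libraries would therefore have the opposite light condition and another time, and part of it another diet. With the columns taken as named at 0, 4 and 8 h, which are 18 other libraries, 10454 genes differed, 5535 of them higher in LD and 4919 higher in DD. None of these other libraries is among the control libraries placed by values. By that placement they would therefore be of the -Trp diet, at times that are not established. Values given below with the columns as named are thus not a second measure of the same comparison.

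The SCN is the central pacemaker of mammals. In its cells CLOCK and BMAL1, the product of Arntl, activate the Per and Cry genes, and PER and CRY in turn repress their own transcription, a feedback of circadian length. Light reaches the SCN from the retina through glutamate and PACAP and acts on the clock through calcium, CREB and the induction of Per1, Per2 and immediate early genes, while peptides such as VIP and AVP and the transmitter GABA couple the cells to each other. In DD the loop runs on its own period, so that a time in DD need not be the same phase as that time in LD.

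The libraries of the 2 conditions differed first in their sum of FPKM. Over all 24883 rows it was 403066 to 483096 (median 469381) in Ctrl LD and 317417 to 334538 (median 327253) in Ctrl DD, without overlap. The mean was 134376 higher in LD, a ratio of 1.41 (exact two-sided permutation test within time points, p = 0.00025, the smallest that 8000 arrangements allow). The largest single parts came from abundant transcripts: Cst3, a secreted protease inhibitor, had a mean of 2817 FPKM in LD against 1516 in DD, Rps29, a ribosomal protein, 2551 against 1357, and Fth1, the ferritin heavy chain, 2055 against 881. The 10 genes with the largest part, which also include Oxt, Ppia, Rps27rt, Rpl41, Rps21, Apoe and Ubb, made up 7.82% of the difference, the cytosolic ribosomal proteins 19.4% and the nuclear genes of oxidative phosphorylation 9.98%. Without the 50 highest rows the difference was still 104435. FPKM hold no number of reads, so the depth of each library is unknown.

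**Figure D1:**
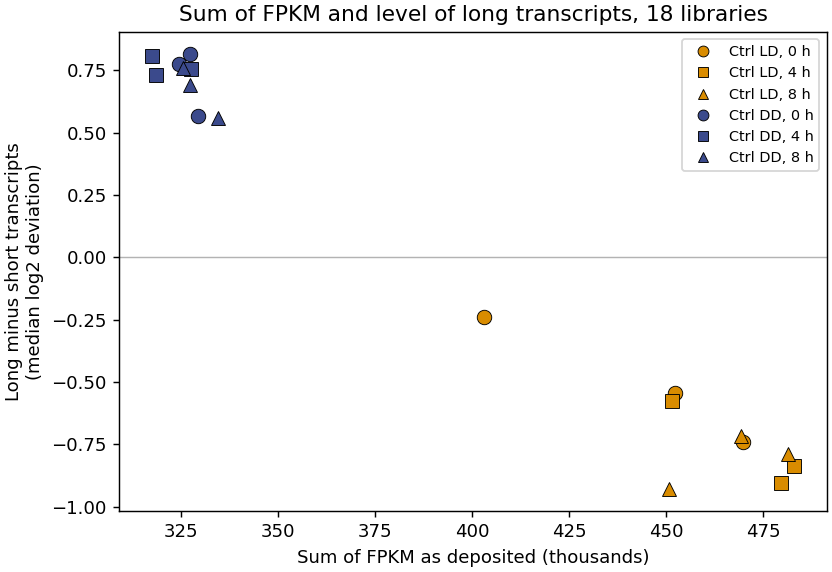
Sum of FPKM as deposited (x axis, in units of 1000) against the length index of each of the 18 libraries (y axis: median log2 deviation from the gene mean of transcripts of 8000 bases or more, minus that of transcripts of 1000 bases or less). Colours give the light condition and symbols the time. The 9 Ctrl LD libraries lie at 403066 or more with an index of -0.93 to -0.24, and the 9 Ctrl DD libraries at 334538 or less with an index of 0.56 to 0.82.

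Because of the unequal sums, each library was divided by a median-of-ratios factor, 0.978 to 1.07 in LD and 0.932 to 0.985 in DD, and levels below are these scaled FPKM. On this scale the median LD minus DD difference over all 14397 genes tested was 0.02 (log2). LD and DD differed at an adjusted p under 0.05 (limma, Benjamini-Hochberg) for 10876 genes, 75.5% of those tested. Of all genes tested, 39.3% were higher in LD (5656 genes) and 36.3% were higher in DD (5220 genes), and 37.4% had 9 LD and 9 DD values that did not overlap. Most of these differences were modest, with a median size of 0.46 on the log2 scale among called genes, and 913 genes differed by at least 1, 195 of them higher in LD and 718 higher in DD. The split between the directions depends on the scale: with FPKM as deposited it was 6753 higher in LD against 4265 higher in DD (median of all genes 0.12), and with every library set to the same sum it was 2411 against 8895 (median of all genes -0.31). With quantile normalization it was 5892 higher in LD against 4878 higher in DD (median of all genes 0.05). A count of members below is read against these shares. The first principal component held 59.1% of the variance and separated the 9 LD from the 9 DD libraries.

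The difference went with transcript length. Over 13835 genes with an annotated length, Spearman's rho between the LD minus DD difference and the longest transcript was -0.62 (across genes, which are not independent replicates). The median difference was 0.62 in 617 genes of 500 to 1000 bases, 0.02 in 2725 genes of 3 to 4 kb, and -1.12 in 163 genes longer than 12 kb, of which 93.3% were higher in DD. The length index, long minus short transcripts, was -0.93 to -0.24 in LD and 0.56 to 0.82 in DD. No label gives a library batch, and lighting cannot be told apart from any other way in which the 2 sets of libraries differed. Many results below are therefore given also after centring by length, in which a smooth curve of deviation on length was taken out of each library, a setting chosen after the data were seen that also takes out any biological difference shared by long or short genes. After centring, 33.7% of 13835 genes were higher in LD (4660) and 32.9% were higher in DD (4557).

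**Figure D2:**
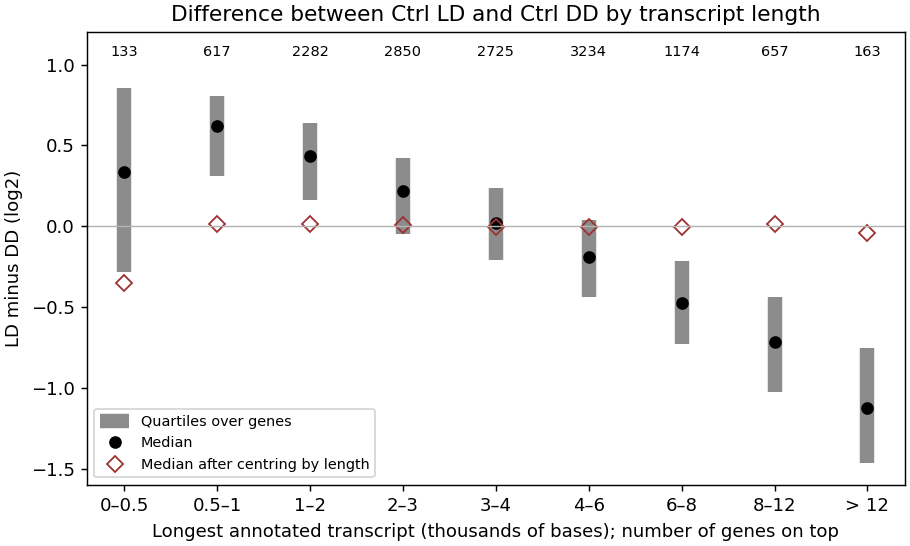
LD minus DD difference (log2, y axis) of all tested genes with a length, in bins of the longest annotated transcript (x axis). The median falls from 0.62 at 500 to 1000 bases through 0.02 at 3 to 4 kb to -1.12 above 12 kb, and is 0.34 in the 133 genes of 500 bases or less.

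Among the 13 genes of the clock loop, 8 were higher in DD and 1 was higher in LD. The Period genes, whose products are part of the negative limb, were all lower in LD, and Per3 had the largest difference of the 13. Per1 was at 6.22 to 9.01 (median 7.74) scaled FPKM in the 9 LD libraries and 8.33 to 13.9 (median 13.2) in the 9 DD libraries. Its level was lower in LD by a log2 difference of -0.63 (SE 0.053, adjusted p = 9.04e-09), and the groups overlapped. Per2 was at 2.76 to 3.78 (median 3.22) in LD and 4.66 to 8.68 (median 5.95) in DD, a difference of -0.86 (adjusted p = 2.33e-08). Per3 was at 3.51 to 6.74 (median 4.13) in LD and 8.01 to 13.2 (median 11.8) in DD, a difference of -1.26 (adjusted p = 1.99e-09). Neither Per2 nor Per3 had an LD library at the level of any DD library. After centring by length the differences were -0.46, -0.51 and -0.88, all 3 still called. With the columns as named, which are other libraries, they were -0.19, -0.76 and -1.23.

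The promoters of the clock genes are where CLOCK and BMAL1 bind, at E-boxes, and where DBP, TEF, HLF and NFIL3 bind, at D-boxes. They are shown for Per1 and Per3, higher in DD, for Cry1, the loop gene higher in LD, and for Ciart, which did not pass. Each line gives the 250 bases before the RefSeq start site on GRCm38.p6, 5′ to 3′ on the gene's strand, with E-boxes (CACGTG) and D-boxes (TTATGTAA or TTACGTAA) in capitals. They lie at chr11:69098699-69098948 (plus strand) for Per1, at chr4:151044666-151044915 (minus) for Per3, at chr10:85185055-85185304 (minus) for Cry1 and at chr3:95882229-95882478 (minus) for Ciart.
Per1: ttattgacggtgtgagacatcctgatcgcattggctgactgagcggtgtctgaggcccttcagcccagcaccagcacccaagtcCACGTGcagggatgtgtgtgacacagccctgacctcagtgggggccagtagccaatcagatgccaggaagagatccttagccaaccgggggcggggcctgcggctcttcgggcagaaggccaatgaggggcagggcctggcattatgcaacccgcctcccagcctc
Per3: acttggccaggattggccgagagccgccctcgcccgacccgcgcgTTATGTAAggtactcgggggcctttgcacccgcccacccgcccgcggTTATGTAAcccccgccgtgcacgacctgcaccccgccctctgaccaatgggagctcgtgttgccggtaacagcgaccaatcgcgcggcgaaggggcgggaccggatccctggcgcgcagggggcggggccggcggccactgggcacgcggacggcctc
Cry1: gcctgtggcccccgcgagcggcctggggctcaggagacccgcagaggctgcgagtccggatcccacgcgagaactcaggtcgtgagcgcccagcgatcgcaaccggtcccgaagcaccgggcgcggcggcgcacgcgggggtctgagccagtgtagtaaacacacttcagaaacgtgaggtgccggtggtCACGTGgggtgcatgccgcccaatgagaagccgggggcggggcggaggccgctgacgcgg
Ciart: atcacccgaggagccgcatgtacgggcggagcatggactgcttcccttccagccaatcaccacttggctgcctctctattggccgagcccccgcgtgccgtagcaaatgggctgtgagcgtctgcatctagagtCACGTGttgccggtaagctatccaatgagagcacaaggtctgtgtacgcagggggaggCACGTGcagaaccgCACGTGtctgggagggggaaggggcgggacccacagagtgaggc
Per1, for the first of its start sites, and Cry1 hold 1 E-box each, 166 and 60 bases before the start. Ciart holds 3, between 116 and 44 bases before it, and Per3 holds 2 D-boxes, 205 and 158 bases before it. Of 21 clock loop and clock output genes, 18 had an entry, 5 held an E-box, 1 a D-box and 1 a CRE (TGACGTCA), where 6.86%, 1.10% and 1.77% of 27025 genes did, counted on both strands. Of the 5 genes that hold an E-box, Cry1 alone lay above 0 in the comparison (0.16). Per1 (-0.63), Tef, Bhlhe41 and Ciart (-0.09) lay below it, of which Bhlhe41 and Ciart did not pass.

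The positive limb was also lower in LD. Clock was at 4.27 to 7.43 (median 5.07) in LD and 9.05 to 11.2 (median 10.1) in DD, a difference of -0.86 (adjusted p = 2.06e-09). This is a transcript of 9744 bases, and after centring by length its difference was -0.10 (adjusted p = 0.0755), no longer called. Arntl was at 6.57 to 8.36 (median 6.85) in LD and 6.62 to 10.2 (median 8.18) in DD, with overlap, a difference of -0.21 (adjusted p = 7.94e-05) that held after centring. Npas2, which can stand in for Clock, did not pass (-0.08, adjusted p = 0.383).

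Cryptochromes and nuclear receptors did not lie to one side. Cry1 was at 7.04 to 8.77 (median 7.68) in LD and 5.73 to 7.72 (median 6.85) in DD, a difference of 0.16 (adjusted p = 0.0144) that turned to -0.19 with libraries set to the same sum. Cry2 did not pass (-0.09, adjusted p = 0.0882). Of the REV-ERB repressors of Arntl, Nr1d2 was lower in LD (-0.34, adjusted p = 4.35e-05) and Nr1d1 did not pass (0.15, adjusted p = 0.176). Their activating counterparts Rora (-0.64) and Rorb (-0.27) were lower in LD, but both are transcripts over 9 kb whose sign turned after centring, to 0.21 and 0.45. The median over the 13 loop genes was -0.27, and -0.10 after centring, where 1 was higher in LD and 6 higher in DD. With every library set to the same sum all 13 were higher in DD.

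Output genes of the clock did not lie to one side. Of 8 tested, Dbp, Nfil3 and Usp2 were higher in LD and Tef was higher in DD, the median was 0.01, and no member had groups without overlap. With equal sums none was higher in LD and 5 were higher in DD, and after centring 4 and 3. Dbp, the D-box activator directly driven by CLOCK and BMAL1, was at 13.7 to 37.6 (median 27.4) in LD and 9.45 to 25.3 (median 22.1) in DD, a difference of 0.35 (adjusted p = 0.00742). Centring by length left -0.0058 of it, and the same-sum scale -0.02. Nfil3, the repressor at the same sites, was at 3.74 to 5.70 (median 4.64) in LD and 2.52 to 4.27 (median 3.03) in DD, a difference of 0.45 (adjusted p = 7.70e-07) that was 0.14 (adjusted p = 0.0216) after centring. Tef differed by -0.22 (adjusted p = 0.000159) and Usp2 by 0.19 (adjusted p = 0.0259), and both stayed called after centring (-0.10 and 0.22). Hlf (0.06), Bhlhe40 (-0.15), Bhlhe41 (-0.03) and Ciart (-0.09) did not pass. Without 3 libraries that stood apart in regional markers, described below, only Nfil3 and Tef were called.

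Means by time point were compared next. Dbp had a mean of 15.8 ± 1.87 (SD, n = 3), 26.6 ± 6.25 and 34.8 ± 2.60 scaled FPKM at 0, 4 and 8 h in LD, and 13.4 ± 4.29, 22.5 ± 0.982 and 23.5 ± 1.60 in DD. Its LD minus DD difference passed at 8 h alone (0.56, adjusted p = 0.0176), as did that of Nr1d1 (0.42, adjusted p = 0.0262). Arntl had means of 8.11 ± 0.263 at 0 h and 6.62 ± 0.063 at 8 h in LD and of 9.69 ± 0.460 and 7.37 ± 0.659 in DD. Per1 ran the other way, with 6.52 ± 0.509 and 8.37 ± 0.637 in LD and 9.91 ± 1.38 and 13.4 ± 0.166 in DD, and its LD minus DD difference was -0.56, -0.69 and -0.65 at the 3 times. For none of these genes did the difference depend on time by the interaction test, in which Nr1d1 had an adjusted p of 0.612 and Dbp of 0.779.

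**Figure D3:**
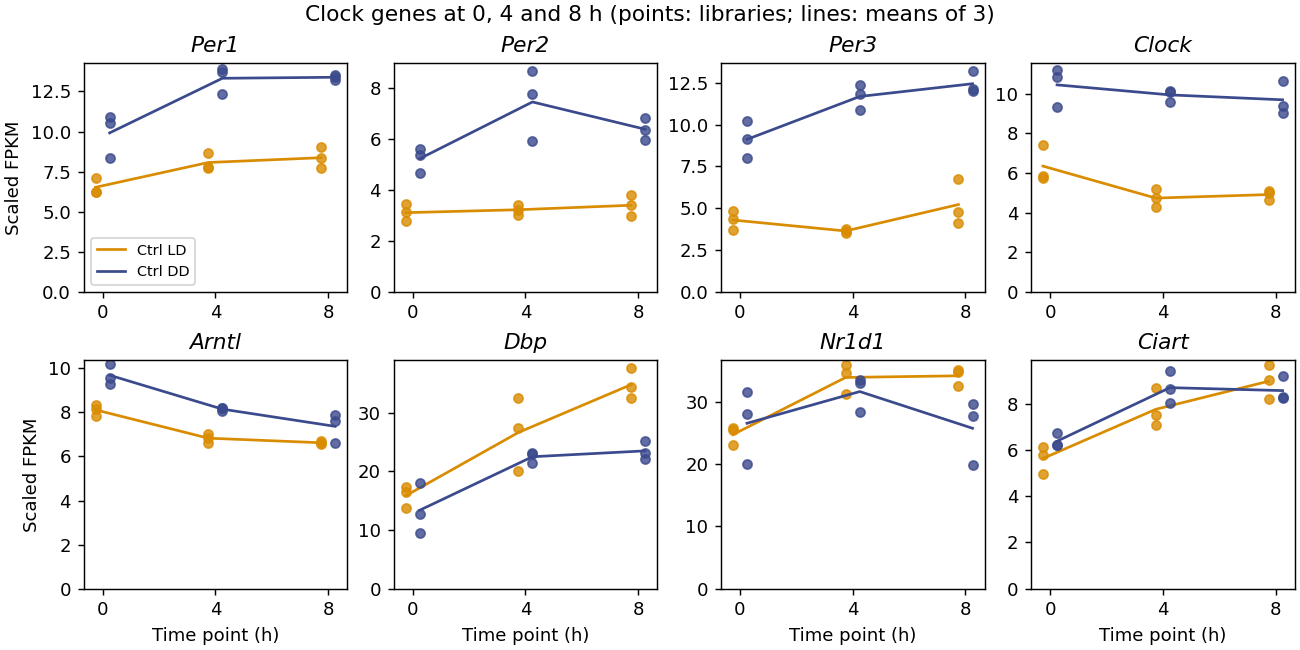
Scaled FPKM (y axis) of clock genes at 0, 4 and 8 h (x axis) in Ctrl LD and Ctrl DD, each point 1 library and each line joining the means of 3. The 9 DD points of Per2 and Per3 lie above the 9 LD points, while Dbp overlaps, with LD means of 15.8, 26.6 and 34.8 and DD means of 13.4, 22.5 and 23.5.

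Of 12 clock modifiers, 3 were higher in LD and 5 higher in DD, against 2 and 2 after centring and none and 11 with equal sums. Fbxl21, an F-box protein that acts on cryptochrome stability, was at 2.56 to 4.99 (median 3.82) in LD and 4.69 to 7.86 (median 5.81) in DD (-0.62, adjusted p = 8.28e-05), and kept this after centring (-0.64). Gsk3b, a kinase of clock proteins with a transcript of 8303 bases, was lower in LD (-0.48) before and higher (0.14) after centring. Tipin was higher in LD (0.41) but was not called after centring (0.062, adjusted p = 0.413), and its partner Timeless did not pass (-0.08, adjusted p = 0.344).

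Genes induced by light and by neuronal activity gave a mixed picture. Of 34 listed, Fosb, Fosl1, Egr2 and Atf3 were below the filter on low values, and of the 30 tested 11 were higher in LD and 4 higher in DD, with a median of 0.11. With every library set to the same sum, 5 were higher in LD and 12 higher in DD. The most familiar reporters of a light pulse did not pass: Fos was at 1.93 to 4.86 (median 2.80) in LD and 1.51 to 4.4 (median 2.95) in DD (0.14, adjusted p = 0.195), and Egr1 differed by 0.09 (adjusted p = 0.618). Among those higher in LD, Jund, a Jun family factor expressed also at rest, was at 33.5 to 57.8 (median 39.2) against 18.1 to 29.1 (median 21.1), a difference of 0.94 (adjusted p = 2.33e-07). Vgf, a secreted neuropeptide precursor, was at 68.6 to 114 (median 75.8) in LD and 35.2 to 68.5 (median 51.7) in DD, a difference of 0.70 (adjusted p = 1.12e-05). Neither Jund nor Vgf overlapped between the groups. Ier5 (0.67), Ier2 (0.63), Dusp1, a MAP kinase phosphatase (0.50), and Arc, a synaptic immediate early gene (0.50), were higher in LD as well, and these 6 genes stayed called after centring.

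Some activity-dependent genes went the other way. Npas4, a factor induced by calcium entry, was at 0.702 to 2.88 (median 1.15) in LD and 2.27 to 3.02 (median 2.82) in DD, a difference of -0.87 (adjusted p = 4.88e-05) that was -0.85 after centring. The highest of the 9 LD values, 2.88, came from 1 library at 8 h, and the other 8 LD libraries, up to 1.67, lay below all 9 DD libraries. Nptx2, a secreted pentraxin that clusters AMPA receptors, was at 2.46 to 5.67 (median 3.93) in LD and 2.80 to 16.3 (median 13.0) in DD (-1.35, adjusted p = 4.09e-05, and -1.55 after centring). Rrad (-0.44) and Fosl2 (-0.24) were lower in LD too. Fosl2 was -0.54 and called with equal sums, lost its call with FPKM as deposited (-0.14) and with quantile normalization (-0.017), was 0.20 and not called after centring, and lost its call in 10 of the 18 fits that leave out 1 library.

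The receptors and kinases that carry light input were mostly lower in LD, and less so once length was taken out. Of 28 genes, 2 were higher in LD and 20 higher in DD, with a median of -0.31, which was -0.04 after centring (9 higher in LD, 9 higher in DD). The glutamate receptor subunits Grin2a and Grin2b, of the NMDA type, and Gria2, of the AMPA type, stood out. Grin2a was at 0.182 to 0.549 (median 0.299) in LD and 2.04 to 2.91 (median 2.39) in DD. Grin2b was at 0.408 to 0.883 (median 0.661) in LD and 3.18 to 4.53 (median 3.62) in DD. Gria2 was at 22.2 to 41.4 (median 25.8) in LD and 66.4 to 89.4 (median 75.2) in DD. None of these 3 overlapped, and their differences were -1.81, -1.89 and -1.46, then -0.71, -0.38 and -0.65 after centring, each still called. Crtc3, a CREB coactivator, differed by -0.58 and by -0.34 after centring.

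SCN peptides were on balance higher in LD and the receptors for them higher in DD. Of 13 peptide genes, 9 were higher in LD and 2 higher in DD, with a median of 0.60, but after centring 2 were higher in LD and 3 higher in DD, with a median of 0.04. Vip, made by the retinorecipient core cells, was at 12.9 to 37.9 (median 19.2) in LD and 7.40 to 29.2 (median 14.8) in DD, a difference of 0.56 (adjusted p = 0.0215). Avp, made by the shell cells, was at 394 to 892 (median 491) in LD and 110 to 468 (median 368) in DD, a difference of 0.67 (adjusted p = 0.0137). Both overlapped, and both lost the call after centring (adjusted p = 0.139 and 0.966) and without the 3 libraries that stood apart (0.0906 and 0.0581). With the columns as named, which are other libraries, Vip was at -0.09 and Avp at 0.04. Grp (0.64), Prok2 (0.69) and Nms (0.60) were called as well, Nms not in 11 of the 18 fits without 1 library. Penk, an opioid precursor, had groups without overlap, at 97.3 to 217 (median 111) in LD and 47.5 to 96.0 (median 55.7) in DD, and differed by 1.10 and by 0.65 after centring. Cck differed by 1.68 and by 1.08 after centring. Without the 3 libraries that stood apart, 6 peptide genes were higher in LD and 2 higher in DD.

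Prok2, an SCN output signal, had a time course of its own, with means of 1.23 ± 0.160, 2.58 ± 0.980 and 1.47 ± 0.559 (SD, n = 3) at 0, 4 and 8 h in LD and 1.5 ± 0.42, 0.847 ± 0.265 and 0.414 ± 0.183 in DD. Its difference was -0.19 at 0 h, 1.16 at 4 h and 1.09 at 8 h, of which the latter times passed (limma adjusted p = 0.000879 at 4 h and 0.00146 at 8 h). The interaction itself did not pass after adjustment (adjusted p = 0.596).

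On the receiving side, 14 of 16 receptor genes were tested, of which 1 was higher in LD and 8 higher in DD, with a median of -0.30 and of -0.52 after centring. Grpr, the receptor of GRP, was at 0.0328 to 0.339 (median 0.176) in LD and 0.772 to 1.22 (median 0.980) in DD, without overlap (-1.09, adjusted p = 2.12e-09, and -1.29 after centring). Oprk1, the kappa opioid receptor, was lower in LD by -0.71, and by -0.54 after centring. Among 7 transcription factors that define or maintain SCN neurons, none was higher in LD and 6 were higher in DD, against 2 and 3 after centring. Six6 was at 0.917 to 2.88 (median 1.66) in LD and 2.13 to 5.33 (median 4.24) in DD (-1.0, adjusted p = 1.64e-05), Lhx1 differed by -0.68 (adjusted p = 0.00138), both still called after centring (-0.94 and -0.65), and Zfhx3, a transcript of 17152 bases, by -0.59 before and 0.64 after centring.

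GABA, used by nearly all SCN neurons, gave 6 genes higher in LD and 11 higher in DD of 22, against 5 and 10 after centring, 1 and 17 with equal sums and 2 and 16 with quantile normalization. Among those higher in LD, Slc32a1, the vesicular transporter, was at 70.2 to 104 (median 86.1) in LD and 23.6 to 53.5 (median 43.3) in DD, without overlap (1.13, adjusted p = 8.60e-07). Gad1, which makes GABA, differed by 0.54 (adjusted p = 0.000173), and both differences kept their size after centring (0.98 and 0.53). With equal sums at most 1 of these 2 genes stayed called higher in LD. In contrast Gabrb1, a GABA-A receptor subunit with a transcript of 13737 bases, was at 6.09 to 8.83 (median 7.33) in LD and 17.2 to 22.0 (median 18.8) in DD (-1.37, and -0.32 after centring). Of 31 ion channel genes of membrane excitability, 3 were higher in LD and 24 higher in DD (median -0.54), but 11 and 10 after centring (median -0.05). Kcnq3, a subunit of the M-type potassium channel, was at 1.04 to 2.07 (median 1.67) in LD and 6.48 to 10.1 (median 8.31) in DD and differed by -2.11, and by -1.18 after centring. Kcnn3 (-1.48) and the calcium channel subunit Cacna1b (-1.07) were lower in LD too, and both stayed called after centring.

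Genes for ribosomes and mitochondria rose together in LD. Of 80 cytosolic ribosomal protein genes tested, 79 were higher in LD and the other did not pass, the median was 0.80, and 72 had groups without overlap. These transcripts are short, yet 67 were higher in LD and 1 higher in DD after centring (median 0.23). Rplp1 was at 1142 to 1928 (median 1506) in LD and 655 to 788 (median 689) in DD. The ribosomal proteins of mitochondria (72 of 74 higher in LD, median 0.67), the nuclear genes of oxidative phosphorylation (78 of 80, median 0.89) and the proteasome (32 of 37, median 0.58) were alike, with medians of 0.30, 0.34 and 0.22 after centring. Examples are Cyc1, cytochrome c1, at 132 to 180 (median 160) in LD and 72.7 to 88.9 (median 82.4) in DD, and Psmb1, a proteasome subunit, at 154 to 208 (median 180) and 92.1 to 115 (median 98.2). In all 4 lists the direction was also the same with FPKM as deposited, with equal sums and with quantile normalization.

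**Figure D4:**
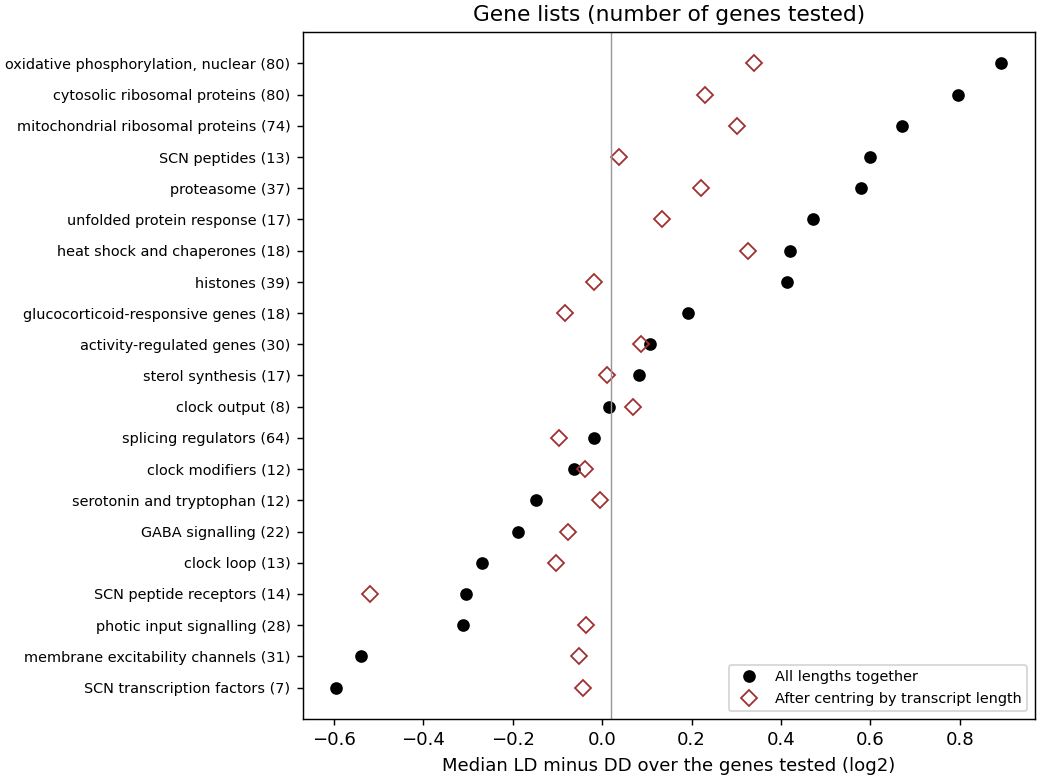
Median LD minus DD difference (log2, x axis) of each gene list (y axis, number of genes tested in brackets), before (filled) and after (open) centring by transcript length, with a vertical line at the median of all genes, 0.02. Oxidative phosphorylation and ribosomal lists stay above the line in both (0.89 and 0.34, 0.80 and 0.23), while ion channels move from -0.54 to -0.05 and SCN peptides from 0.60 to 0.04.

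Stress and chaperone genes were mostly higher in LD on the main scale, and less so on others. Of 18 heat shock genes, 15 were higher in LD and 1 higher in DD (median 0.42, and 0.33 after centring), Hspe1, the mitochondrial co-chaperonin, at 172 to 204 (median 187) in LD and 84.5 to 143 (median 96.9) in DD. Of 17 genes of the unfolded protein response, 14 were higher in LD and 1 higher in DD (median 0.47, and 0.13 after centring). Atf4, its translation-controlled factor, was at 80.2 to 98.9 (median 82.8) in LD and 42.2 to 53.7 (median 47.8) in DD (0.85, adjusted p = 2.94e-10). With libraries set to the same sum these 2 lists gave 8 and 7 genes higher in LD and 5 and 5 higher in DD. With quantile normalization they gave 10 and 7 higher in LD and 6 and 2 higher in DD. The median of the unfolded protein response list was then that of all genes, 0.05. Histone genes gave 26 higher in LD of 39 tested (median 0.41), but 14 higher in LD and 12 higher in DD after centring. Splicing regulators gave 19 higher in LD and 27 higher in DD of 64, and 19 and 28 after centring.

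Genes that answer to circulating hormones and to diet did not lie to one side. Of 18 glucocorticoid-responsive genes tested, 8 were higher in LD and 4 higher in DD (median 0.19), with equal sums 1 and 9, and after centring 3 and 6. Fkbp5, a sensitive reporter of glucocorticoid receptor activity, was at 6.59 to 9.10 (median 8.06) in LD and 6.53 to 10.7 (median 8.32) in DD (-0.05, adjusted p = 0.594), while Zbtb16, another such gene, was lower in LD without overlap (-1.20, adjusted p = 3.46e-07). Sterol synthesis genes gave 6 and 6 of 17, after centring 6 and 4, and with equal sums none and 12. Of 21 genes of serotonin and tryptophan handling, 12 were tested, 4 higher in LD and 6 higher in DD, and after centring 3 and 5. Both enzymes that start serotonin synthesis, Tph1 and Tph2, were under 1 FPKM in all 18 libraries. Among serotonin receptors, Htr2a was at 0.352 to 1.37 (median 0.854) in LD and 2.21 to 4.07 (median 2.99) in DD (-1.40, and -1.08 after centring), whereas Htr7, a receptor linked to phase shifts of the SCN, was at 9.24 to 12.3 (median 10.8) in LD and 5.83 to 8.81 (median 7.63) in DD (0.53, and 0.46 after centring). Cirbp and Rbm3, induced by small drops in temperature, did not pass (0.01 and -0.09), although Cirbp was at -0.37 to -0.47 and called with equal sums, with quantile normalization and after centring. Rbm3 was called higher in DD as well with equal sums and with quantile normalization. At 4 h alone, 1 of these 2 genes was called higher in DD.

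Differences of the greatest size were looked for among called genes without overlap and with a mean of at least 1 FPKM. On the LD side, 4 of the 10 highest were Chat, Slc18a3, Slc10a4 and Ngfr, genes known from cholinergic neurons. Chat, which makes acetylcholine, was at 2.09 to 8.71 (median 4.47) in LD and 0.135 to 1.72 (median 0.239) in DD (2.64, adjusted p = 9.88e-08, and 2.50 after centring). Slc18a3, which loads acetylcholine into vesicles, Slc10a4, a vesicle protein of such neurons, and Ngfr, the low-affinity neurotrophin receptor, differed by 2.21, 2.28 and 2.34. Also among the 10 were Pvalb, a calcium-binding protein of fast-spiking neurons (2.60), Ucn3, a peptide of the CRH family (2.34), and the transcription factors Gbx2 (2.24) and Tbr1 (1.87).

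The 10 of greatest size on the DD side were of another kind. Tgoln2, a protein of the trans-Golgi network, was listed at 0.000243 or less in all 9 LD libraries and at 21.7 to 28.4 (median 25) in the 9 DD libraries, and no fold is given. Its close copy Tgoln1, looked up after these values were seen, was at 41.2 to 61.4 (median 53.9) in LD and 47.3 to 54.3 (median 51.8) in DD and did not pass (0.07, adjusted p = 0.277), and how reads were divided between the copies is not known here. Ipw and Zim1 are imprinted genes, Ipw at 18.4 to 69.3 (median 24.2) in LD and 203 to 293 (median 215) in DD (-2.95) and Zim1 at 1.60 to 3.90 (median 2.25) and 15.6 to 19.8 (median 17.2) (-2.58). Cdr1, a locus known for a circular RNA, differed by -2.57 with a transcript of 1554 bases, and by -3.0 after centring. Arfgef3 (-2.67), Zbed6 (-2.66), Lnpep (-2.63), Dok6 (-2.53) and Plcxd3 (-2.53) stayed called after centring too. Alb, the plasma protein albumin, was at 0 to 0.407 in LD and 0.971 to 34.9 in DD, where 34.9 came from replicate 1 at 0 h and the other 8 lay up to 3.70. A pair of long nuclear RNAs, chosen after their values were seen, went the same way: Meg3 was at 117 to 438 (median 153) in LD and 792 to 1019 (median 904) in DD, and Malat1 at 12.1 to 40.0 (median 20.7) and 67.6 to 129 (median 86.9).

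Markers of neighbouring brain regions moved with the light condition. The tissue held SCN markers in all 18 libraries, and of 8 such markers 5 were higher in LD (Vip, Avp, Grp, Nms, Prok2) and 3 higher in DD (Six6, Lhx1, Rorb), with a summed level of 421 to 957 in LD and 142 to 487 in DD, where 142 came from replicate 1 at 0 h and the other 8 lay from 268. The count depends on the setting: without the 3 libraries that stood apart, 2 were higher in LD and 3 higher in DD, with equal sums none and 3, with quantile normalization 4 and 2, and after centring 1 and 2. Lhx6 and Lhx8, factors of the ventral forebrain chosen after their values were seen, were at 5.37 to 18.6 (median 13.8) and 3.91 to 12.8 (median 10.7) in LD and 0.177 to 7.90 (median 0.595) and 0.0353 to 5.83 (median 0.214) in DD. Of 7 markers of the arcuate nucleus 1 was higher in LD and 4 were higher in DD, and after centring 1 and 5. Agrp was at 0.163 to 0.7 (median 0.357) in LD and 0.197 to 35.9 (median 16.1) in DD (-3.80), and Pomc at 4.24 to 34.7 (median 5.20) and 2.49 to 227 (median 132) (-3.48). The arcuate marker that was higher in LD was Tac2 (1.33). The summed arcuate level was 105 to 192 in LD and 81.4 to 520 in DD, and without Ctrl DD 0 h replicate 1, the lowest, the DD libraries lay from 198 and did not overlap with LD. Of 5 markers of the paraventricular and supraoptic nuclei, 3 were higher in LD and 2 higher in DD (1215 to 2417 against 444 to 1101), after centring 2 and 1, with Oxt at 1079 to 2187 (median 1797) in LD and 349 to 906 (median 580) in DD.

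For these regional genes 1 DD library departed from its group. Ctrl DD 0 h replicate 1 had the highest DD level of Lhx6 (7.90, the others up to 0.704) and the lowest of Agrp (0.197, the others from 7.84), which is where the LD libraries lay, while its sum of FPKM (329321) and its length index (0.57) were those of the DD libraries. Of the LD libraries, replicate 1 at 8 h had the lowest Lhx1 (0.230, the others from 0.798) and replicate 3 at 8 h the highest Pomc (34.7, the others up to 18.9). Without these 3 libraries, a choice made after the data were seen, 10819 genes were called (5676 higher in LD, 5143 higher in DD). The sums of FPKM then differed by 133124, and Per1, Per2 and Per3 differed by -0.65, -0.90 and -1.38. Some libraries kept in that fit stood apart in other markers. The summed striatal level was 171 in Ctrl LD 0 h replicate 3, against an LD median of 32.7. The summed choroid plexus level was 321 in Ctrl DD 4 h replicate 3, against a DD median of 17.3. The part that the content of neighbouring nuclei has in the other results was not tested.

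**Figure D5:**
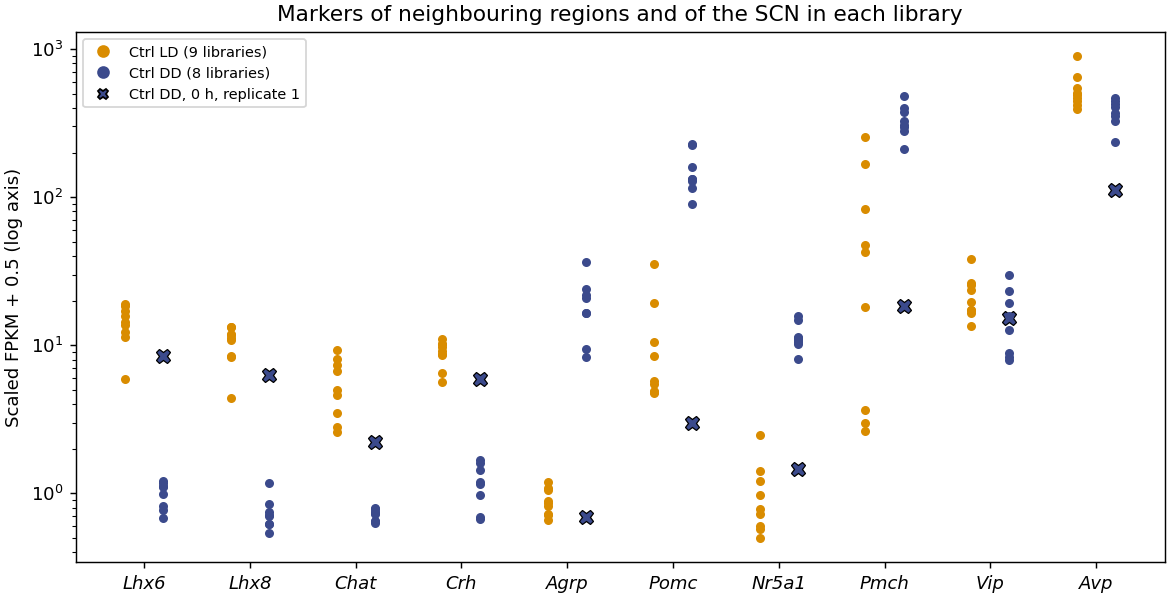
Scaled FPKM + 0.5 (y axis, log scale) of genes of neighbouring regions and of the SCN (x axis), each point 1 library, Ctrl LD beside Ctrl DD, with Ctrl DD 0 h replicate 1 as a cross. Lhx6, Lhx8, Chat and Crh are higher in LD and Agrp, Pomc, Nr5a1 and Pmch (the last pair named after their values were seen) are lower, the cross lies apart from the other 8 DD points in all 8 (Lhx6 7.90, Agrp 0.197), and Vip and Avp overlap.

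Cell type markers differed in the same libraries. Of 11 oligodendrocyte markers 9 were higher in LD and the other 2 did not pass, with a summed level of 2034 to 3519 in LD and 1418 to 2464 in DD. This became 3 higher in LD and 1 higher in DD with equal sums, 3 and none with quantile normalization, and 7 and none after centring. Of 9 microglia markers 6 were higher in LD and the other 3 did not pass (195 to 310 against 162 to 202), and of 7 general neuron markers 6 were higher in LD and the other did not pass (1270 to 1687 against 938 to 1173). The neuron markers gave 3 and 2 with equal sums, 2 and 2 with quantile normalization, and 6 and none after centring, and the microglia markers 6 and 2, 8 and none, and 5 and none. Of 3 markers of glutamatergic neurons 2 were higher in DD, with Slc17a6, their vesicular transporter in the hypothalamus, at 17.5 to 40.9 (median 28.1) in LD and 33.1 to 58.3 (median 46.6) in DD. Astrocyte markers gave 3 and 2 of 9 (707 to 995 against 699 to 884), and none of the 6 red blood cell markers passed in limma, nor did they with equal sums. Of the remaining lists, ependymal cells and tanycytes gave 5 higher in LD and 2 higher in DD of 7, oligodendrocyte precursors 1 and 3 of 6, endothelial cells 1 and 1 of 7, mural cells 1 and 2 of 6, choroid plexus 2 and 1 of 6, striatum 3 and 1 of 5, and cortex 1 and 1 of 3. Thalamus gave 2 and none of 3, pars tuberalis and pituitary none and 2 of 4, and meningeal fibroblasts none and 1 of 6. After centring they gave 2 and none, none and 1, and none and 1. No marker of the pars tuberalis and pituitary was called without the 3 libraries that stood apart. Without the 3 libraries that stood apart, no striatal marker was higher in LD, nor with equal sums or after centring. After centring, ependymal cells and tanycytes gave 2 and 3, and oligodendrocyte precursors 3 and none. No marker was at 0 in all 18 libraries, while Myh11 (mural cells), Kcne2 (choroid plexus), Neurod6 (cortex) and Pitx1 (pituitary) were under 1 FPKM in each.

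The difference between LD and DD was present at each time. At 0 h 7518 genes were called (52.2%), at 4 h 9106 (63.2%) and at 8 h 8916 (61.9%), with 3 libraries against 3, and 6442 genes were called at all 3 times with the same sign, against 5 called at 2 times with opposite signs. Directions were balanced at 0 h (3916 higher in LD, 3602 higher in DD), at 4 h (4774 and 4332) and at 8 h (4613 and 4303). With equal sums these became 1384 and 6561, 1867 and 7637, and 1662 and 8254, and with FPKM as deposited 5275 and 2601, 5937 and 3310, and 5109 and 3819. A dependence on time was called for 1 gene of 14397 (0.00695%), with 1194 at an unadjusted p under 0.05. It was a second row of Fam205a2, a member of a gene family, at 1.5 to 1.86 in the 6 LD libraries of 0 and 4 h, at 0 in all 3 of 8 h, and at 1.76 to 3.12 in DD (adjusted p = 5.69e-07). The next 4 by p, Ttll8, Srrm4os, Frmd6 and Hif3a, did not pass.

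Little of this was particular to the day. The 18 control libraries of 12, 16 and 20 h, placed in the same way, had sums of FPKM of 435414 to 479420 in LD and 319668 to 352980 in DD. Across 14426 genes the LD minus DD difference by day and by night had a Pearson r of 0.92 (across genes, from separate libraries), and 89.1% of genes had the same sign. A difference between day and night was called for 14 genes (0.097%), 12 with a more positive LD minus DD difference by day, and 2403 had an unadjusted p under 0.05. The call count moved with single libraries, from 0 to 309, so these genes are given as values. Timeless, which takes part in replication and in clock protein complexes, had a median of 0.655 by day and 0.507 by night in LD and of 0.709 and 1.32 in DD, so that its difference was 0.64 more positive by day (adjusted p = 0.0334). Cd86, a costimulatory protein of microglia and other myeloid cells, differed by 0.51, and Irf1, an interferon-response factor, by 0.49, with Gm4285 (0.61) and B230216N24Rik (0.76) the others of the 5 with the smallest p.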

How the data were processed

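Poly(A) RNA-seq libraries of the SCN (200 ng of total RNA, paired-end 100 cycles) were aligned by the authors to mm10 with Tophat, and the authors' deposited values are FPKM from Cufflinks (versions not given in the sources used here). The depth of the libraries is unknown, and precision comes from the spread between mice, each of which gave 1 library. Columns were placed by equal values (relative tolerance 0.0001). The deposited names of the libraries compared by day are shifted by 12 columns and give the opposite light condition. The members and gene lists were chosen with earlier results of these data known.

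FPKM were divided by median-of-ratios factors, and log2(scaled FPKM + 0.5) was compared between LD and DD by limma (version 3.58.1, under R version 4.3.3), with time as a factor, where the mean over the 18 libraries reached 0.5 FPKM. All adjusted p-values are from limma, by the Benjamini-Hochberg method over all genes tested (threshold 0.05), and differences on this log2 scale understate those of low genes. In simulated data, 87.5% of 200 genes changed by 0.5 among 14397 were recovered, and 15.5% in the interaction. The simulated noise was independent between genes and was added after scaling. It therefore covers neither the scaling nor a difference shared by most genes, as in these data. Transcript lengths are from GENCODE vM21, promoters from RefSeq. Genes were named by rule: the clock loop, clock output and activity lists, the 10 highest and 10 lowest called genes without overlap and averaging 1 FPKM or more, the 5 smallest p of each contrast over time, at most 4 per other list with the smallest p or as a check of the tissue, the 10 largest parts of the sum, Timeless and Fkbp5. A few of the genes so chosen are not reported here. Alternatives were other scales, pseudocounts (0.1 and 1), filters, a replicate block, columns as named, 1 fit of 36 libraries and each library left out.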

Additional observations from a re-analysis of the deposited data

Results flagged for a closer look

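Among the 9 values of each group, the highest or lowest stood apart in 37 of 238 groups of values tested, 15.5%. A value stood apart if its gap to the nearest other value, as a share of the range, was above Dixon's critical value. That critical value gives about 1 in 20 by chance only for independent draws from a single normal distribution. The groups here pool the time points, the genes are not independent, and some were chosen after their values were seen. The share of 15.5% is therefore not compared with a chance rate. Ctrl DD 0 h replicate 1 held 15 of the 37 values that stood apart. It was the highest DD library for Lhx6 (7.90, the others up to 0.704), Lhx8 (5.83), Crh (5.43), Chat (1.72), Ucn3 (1.61), Gbx2 (0.987), Tbr1 (1.79), Alb (34.9), Penk (96.0), Hspe1 (143) and Htr1a (5.11), and the lowest for Tef (61.1, the others from 69.3), Bhlhe40 (13.6), Bhlhe41 (5.84) and Slc17a6 (33.1).

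Of the LD libraries, replicate 1 at 0 h had the lowest sum of FPKM (403066, the others from 450821), the lowest Ddit3 (23.5) and C1qb (36.5) and the highest Clock (7.43) and Oprk1 (6.00). Replicate 1 at 8 h had the highest Per3 (6.74) and Npas4 (2.88) and the lowest Lhx1 (0.230) and Tgoln1 (41.2), and replicate 3 at 8 h the highest Pomc (34.7) and Nr5a1 (1.99). Replicate 2 at 8 h had the highest Pvalb (73.4), Alb (0.407) and Tgoln2 (0.000243), the last far under the DD values. Replicate 2 at 4 h had the highest Avp (892) and Nms (7.92), replicate 3 at 0 h the highest Arc (7.64) and Egr1 (12.4), and replicate 1 at 4 h the highest Timeless (0.872). Of the other DD libraries, replicate 3 at 8 h had the highest Cck (34.8), replicate 2 at 0 h the highest Dok6 (13.4), and replicate 3 at 4 h the highest Malat1 (129).

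The LD minus DD difference depended on the time point for the second row of Fam205a2 (limma interaction, adjusted p = 5.69e-07). It differed between day and night for Cd86 and Gm4285 (both adjusted p = 0.0323) and for B230216N24Rik, Timeless and Irf1 (each adjusted p = 0.0334), and with the replicate number as a block none of these 5 passed.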

How the results depend on the processing

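The count of genes that differed between LD and DD by day, 10876, was 10664 to 11019 without each library in turn, and 4861 (2375 higher in LD, 2486 higher in DD) with a difference of at least 0.5 required as well. At 0, 4 and 8 h it was 6277 to 8155, 8206 to 9558 and 8172 to 8997 without each library, and at 0 h 4592 after centring by length. The difference in the sum of FPKM was 131504 to 141508. Genes that depend on time numbered 1 to 3 without each library, 37 with the columns as named and 0 in 1 fit of 36 libraries (limma, 816 at an unadjusted p under 0.05). The day and night contrast gave 26 genes with FPKM as deposited, 22 with equal sums, 37 with quantile normalization, and 0 to 309 without each library. It gave 309 without Ctrl LD 20 h replicate 2, 205 without Ctrl DD 12 h replicate 3 and 0 without, among others, Ctrl DD 20 h replicate 1.

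With the replicate number as a block the day count was 10797 (5612 higher in LD, 5185 higher in DD) and the day and night count 0 (2171 unadjusted). The numbers do not pair the samples, since the correlation of deviations of same-numbered libraries ran from -0.11 to 0.18 and was over 0.1 in 2 of 9 pairs.

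Named genes called in neither the main fit nor the other setting are left out here. Some of the others turned sign. With equal sums these were Cry1 (-0.19), Nr1d1 (-0.23), Dbp (-0.023), Hlf (-0.30), Usp2 (-0.16), Cirbp (-0.37) and Tgoln1 (-0.31). After centring by length they were Rora (0.21), Rorb (0.45), Dbp (-0.0058), Bhlhe41 (0.35), Gsk3b (0.14), Fosl2 (0.20), Zfhx3 (0.64), Mt1 (-0.061) and Cirbp (-0.47). With the columns as named, which are other libraries, they were Cry2 (0.15), Bhlhe41 (0.25), Tipin (-0.039) and Vip (-0.086). With quantile normalization they were Mt1 (-0.11), Cirbp (-0.41) and Tgoln1 (-0.26). Centring by length and leaving out 3 libraries together were chosen after the data were seen. No number of reads is known, so low values carry an unknown counting error. The cause of these changes was not tested.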

Other observations

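Outside the 18 libraries, the column that would be -Trp DD at 4 h, replicate 2, if the shift of 12 columns is continued had an FPKM sum of 411944 and listed Tgoln2 at 3.27e-05, both within the range of the 9 Ctrl LD libraries, while Meg3, at 524, lay between the Ctrl LD and Ctrl DD ranges. The same column listed Pomc at 95.7 and Lhx6 at 0.303, within the Ctrl DD ranges, and Agrp at 122, above all 9 Ctrl DD libraries. No -Trp column is placed by equal values, so this column is in no comparison.

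The spread between mice was larger in LD, with a median SD within a time point of 0.145 on the log2 scale against 0.114 in DD, and 65.7% of genes had the larger SD in LD.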
